A study of Mus musculus with 17 samples.

Results

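Galectins are a family of small lectins that bind beta-galactoside sugars on glycoproteins and glycolipids. The 5 galectins described here (Lgals1, Lgals3, Lgals4, Lgals8 and Lgals9) were taken with Lgals3bp, the secreted glycoprotein ligand of galectin-3, by gene symbol, by a rule that uses no measured value, although earlier results of these data were known when the set was chosen. They make up 6 of the 56748 genes in the count table. All 6 passed the filter on low counts and were among the 16195 genes tested.

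The study asks what mutations of mitochondrial DNA (mtDNA) that arise within heart muscle do to the heart. RNA was sequenced from heart tissue of 9 hMut and 8 Ctrl mice, with poly(A) selection and 1 library per heart. The hMut mice carried Polg iMut/iMut and +/Ckmm-cre, so that Cre recombinase under the muscle creatine kinase promoter switched on POLG D257A, a mtDNA polymerase that lacks proofreading, in heart. Ckmm-cre is also active in skeletal muscle. The labels call the comparison group Ctrl and give neither its alleles nor the sex of any mouse. The methods give 12 to 16 months as the age of aged hMut hearts, and the paper's echocardiography gives this range for aged controls as well. That range was taken for both groups, since the labels give no age for Ctrl. No treatment was applied, and it is not stated whether mice shared litters.

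Libraries held 32915159 to 46486964 counts in genes. The share of counts from mitochondrially encoded genes was 23.5% to 30.9% in Ctrl and 15.9% to 23.0% in hMut. The heart label fitted the marker genes in each library, with a summed level of 18 cardiomyocyte markers of 56052 to 89705 CPM (counts scaled to a common library size). Polg, the altered gene, was higher in hMut (57.9 ± 6.08 CPM against 34.7 ± 7.31 in Ctrl, SD, n = 9 and 8). Its log2 fold change was 0.74 ± 0.10 (SE; adjusted p = 0.000511, edgeR quasi-likelihood test), and mutant and wild-type transcripts were not told apart in this count. hMut replicates 6 and 9 stood apart from the other libraries in immune and matrix genes, so values without both are given beside the results they move most.

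Galectins are made in the cytosol, leave the cell without a signal peptide, and act both outside and inside it. Outside, they cross-link glycoproteins such as integrins and growth factor receptors. Inside, galectin-3, galectin-8 and galectin-9 gather on endosomes and lysosomes whose membrane has been breached, where sugars of the lumen become exposed. In the heart, galectin-3 is best known as a product of activated macrophages that is linked to fibrosis and serves as a blood marker of heart failure, while galectin-1 is abundant in stromal, vascular and muscle cells. Lgals9 and Lgals3bp are known as interferon-responsive genes, and galectin-4 is mainly a protein of the gut epithelium.

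The promoters of 3 members are printed here. Lgals3 was the member with the largest change, and Lgals3bp and Lgals9 were the members whose promoter held an interferon-type motif. Each sequence runs 5′ to 3′ on the strand of the gene, from 250 bases before to 50 bases after the annotated start, and comes from RefSeq on GRCm38.p6, an earlier build than the GRCm39 of the counts. Promoter entries matched 5 of the 6 members, all but Lgals1. Capitals mark the GC boxes (GGGCGG on either strand) in Lgals3 and the IRF core (AANNGAAA) in Lgals3bp. In Lgals9 they mark 1 IRF core and, nearer the start, the ISRE cores (TTTC, any 2 bases, TTTC).
Lgals3 promoter, chr14:47373610-47373909, plus strand: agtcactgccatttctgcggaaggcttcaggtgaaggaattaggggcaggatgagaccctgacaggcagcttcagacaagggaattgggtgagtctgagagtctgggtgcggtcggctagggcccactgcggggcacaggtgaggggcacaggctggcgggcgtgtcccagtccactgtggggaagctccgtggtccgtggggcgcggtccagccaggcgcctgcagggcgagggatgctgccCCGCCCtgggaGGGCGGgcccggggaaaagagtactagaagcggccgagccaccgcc
Lgals3bp promoter, chr11:118401910-118402209, minus strand: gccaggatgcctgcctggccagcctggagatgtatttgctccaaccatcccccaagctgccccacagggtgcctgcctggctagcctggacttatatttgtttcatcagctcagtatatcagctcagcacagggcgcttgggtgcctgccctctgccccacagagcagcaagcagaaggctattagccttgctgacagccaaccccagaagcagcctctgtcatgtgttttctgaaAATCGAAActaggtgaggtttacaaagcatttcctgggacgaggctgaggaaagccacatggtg
Lgals9 promoter, chr11:78984875-78985174, minus strand: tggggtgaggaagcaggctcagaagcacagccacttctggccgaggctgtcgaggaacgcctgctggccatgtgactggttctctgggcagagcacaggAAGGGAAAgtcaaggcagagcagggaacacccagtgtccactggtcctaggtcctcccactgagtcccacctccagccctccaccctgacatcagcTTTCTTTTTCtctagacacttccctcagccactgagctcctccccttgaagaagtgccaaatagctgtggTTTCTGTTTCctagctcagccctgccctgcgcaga

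Both strands of each promoter were searched. The ISRE core, the element read by interferon-activated transcription factors, was found in 1 of the 5 member promoters, that of Lgals9, and in 3.44% of all 32851 promoters of the same length. Its matches in Lgals9 began 55 bases before the start and at base 16 after it. The IRF core was found in Lgals9 and Lgals3bp and in 23.9% of all promoters. On the minus strand it also overlapped both ISRE cores of Lgals9. GC boxes were found in Lgals3 and Lgals4 and in 35.7% of all promoters. The STAT motif (TTCNNNGAA, in 8.30% of all promoters) and the AP-1 motif (TGANTCA, in 7.81%) were found in 0 of the 5. A match describes letters in the window and is not evidence of binding.

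In Ctrl hearts the galectin transcripts were mostly Lgals1. Levels were compared between genes in CPM per kilobase of the gene length listed with the counts. On this scale Lgals1 stood at 152 ± 11.1 (SD, n = 8), Lgals3bp at 14.6 ± 1.80, Lgals4 at 14.0 ± 5.33, Lgals8 at 12.3 ± 0.660, Lgals9 at 10.7 ± 0.839 and Lgals3 at 3.45 ± 0.659. Lgals1 lay far above the others and Lgals3 below them, whereas Lgals3bp and Lgals4, and Lgals4 and Lgals8, were neighbours within their SD. In hMut hearts the order per kilobase was Lgals1 (152 ± 18.6, n = 9), Lgals3bp (24.6 ± 18.2), Lgals3 (21.1 ± 12.3), Lgals8 (14.4 ± 1.35), Lgals9 (13.4 ± 4.36) and Lgals4 (8.25 ± 2.99). Below Lgals1, each neighbouring pair in the hMut order overlapped within its SD.

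As a share of the 6 members' summed level per kilobase, Lgals3 took 1.66% ± 0.283 in Ctrl and 8.68% ± 4.17 in hMut. Its highest share was 13.8%, in hMut replicate 6. The share of Lgals1 was 73.4% ± 2.83 in Ctrl and 65.7% ± 8.64 in hMut, with the lowest value, 49.97%, in the same heart. There Lgals3bp took 22.3%, against 5.83% to 8.70% over the Ctrl hearts. The summed level itself was 207 ± 10.5 CPM per kilobase in Ctrl and 233 ± 37.4 in hMut.

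**Figure D1:**
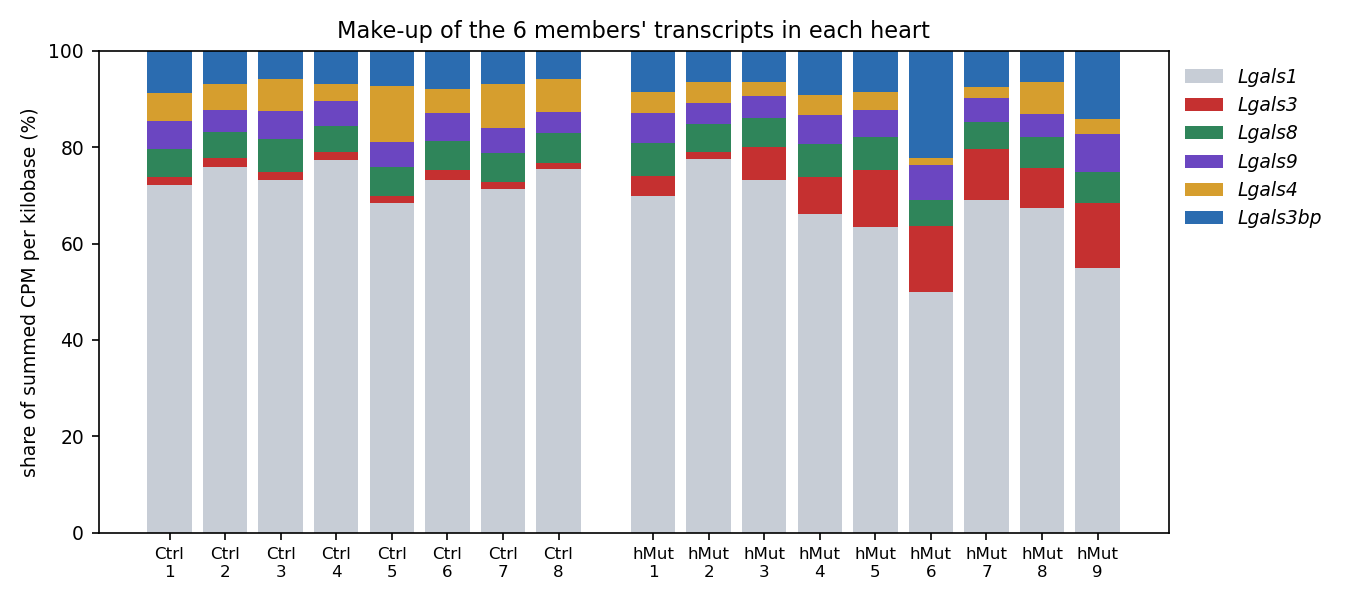
Stacked bars give each member's share (%) of the 6 members' summed CPM per kilobase in each of the 8 Ctrl and 9 hMut hearts. Lgals1 fills most of each Ctrl bar, the Lgals3 band is at most 2.01% in Ctrl and reaches 13.8% in hMut, and hMut replicate 6 has the lowest Lgals1 share (49.97%).

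Between hMut and Ctrl, 2 of the 6 members rose (Lgals3 and Lgals8) and 0 fell at an adjusted p under 0.05. At an unadjusted p under 0.05, 4 were higher and 1 (Lgals4) lower, beside 4128 of the 16195 tested genes in either direction. DESeq2 and limma-voom each called 2 members higher and 1 lower. DESeq2 called 1010 genes higher and 507 lower of 16265, and limma-voom 1161 and 901 of 16195. In the edgeR fit at the adjusted threshold, 548 of all tested genes rose, which is 3.38%, and 176 fell, which is 1.09%. Without hMut replicates 6 and 9, only Lgals3 of the 6 passed, beside 2.01% of genes that rose and 0.712% that fell. With so few members these counts do not set the family apart from other genes. The tests were edgeR quasi-likelihood tests adjusted by Benjamini-Hochberg over all tested genes. Their p-values weigh the group difference against the spread between single hearts.

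Lgals3, whose product galectin-3 is the chimera-type galectin with a long N-terminal tail, rose 6.13-fold (95% interval 3.51 to 10.7). The gene lies on chromosome 14 from 47605208 to 47623617, plus strand, with 6 exons in its canonical transcript. Its level ran from 4.32 to 8.50 CPM in the 8 Ctrl hearts (median 6.29) and from 6.02 to 80.9 CPM in the 9 hMut hearts (median 35.3). Of the hMut hearts, 8 lay above the highest Ctrl heart and replicate 2, at 6.02 CPM, lay within the Ctrl range. Among the 8, replicate 1 was lowest at 14.2 CPM and replicates 6 and 9 were highest at 80.9 and 59.7 CPM. The spread within hMut was 13.4-fold from lowest to highest, against 1.97-fold in Ctrl. The log2 fold change was 2.62 ± 0.38 (SE; adjusted p = 0.000867, edgeR), and Lgals3 ranked at number 55 of all tested genes by p. Without hMut replicates 6 and 9 it was 2.25 ± 0.36 (adjusted p = 0.00449, edgeR).

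Lgals8 encodes galectin-8, a tandem-repeat galectin that marks breached endosomes and recruits an autophagy receptor to them. It rose 1.17-fold (95% interval 1.08 to 1.27), a smaller change with a narrow spread. The gene lies on chromosome 13 from 12454296 to 12479825, minus strand (10 exons). The Ctrl hearts lay between 41.7 and 48.7 CPM (median 45.8) and the hMut hearts between 44.9 and 62.1 CPM (median 53.2). Of the hMut hearts, 7 lay above the highest Ctrl heart, and replicates 1 and 2 lay within the Ctrl range. The log2 fold change was 0.23 ± 0.055 (adjusted p = 0.0249, edgeR). The call was lost without hMut replicates 6 and 9 together (0.17, adjusted p = 0.0552), without hMut replicate 9 alone (0.21, adjusted p = 0.0503) and without Ctrl replicate 1 (0.21, adjusted p = 0.0563). Lgals8 shares its last 875 bases with Heatr1 on the opposite strand, and the strand setting of the counting is not given in the sources used here, so reads there cannot be assigned with certainty. Heatr1, a ribosome biogenesis factor named here for this overlap, also rose (log2 fold change 0.38, adjusted p = 0.0125), from 12.8 to 16.8 CPM.

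Lgals3bp and Lgals9 did not pass the test. Like Lgals3 and Lgals8 (62.1 and 57.5 CPM for Lgals8), they were highest in hMut replicates 6 and 9. Lgals3bp (chromosome 11, 118283577 to 118292918, minus strand, 6 exons) lay between 33.5 and 47.7 CPM in Ctrl (median 42.9) and between 38.1 and 201 CPM in hMut (median 49.7). Replicate 6 stood at 201 CPM and replicate 9 at 96.6 CPM, while the other hMut hearts reached at most 55.9 CPM, and 5 of the 9 lay above each Ctrl heart. The log2 fold change was 0.75 ± 0.30 (adjusted p = 0.134, edgeR), and 0.19 ± 0.089 without replicates 6 and 9 (adjusted p = 0.255).

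Lgals9 (chromosome 11, 78853800 to 78875772, minus strand, 10 exons) encodes galectin-9, a tandem-repeat galectin and a ligand of TIM-3, a receptor found on T cells. It lay between 19.2 and 25.1 CPM in Ctrl (median 23.2) and between 19.3 and 48.7 CPM in hMut (median 24.6). The highest hMut hearts were again replicate 6 (48.7 CPM) and replicate 9 (39.2 CPM), and 4 of the 9 lay above each Ctrl heart. The log2 fold change was 0.32 ± 0.15 (adjusted p = 0.185, edgeR) and fell to 0.08 ± 0.070 without replicates 6 and 9 (adjusted p = 0.571).

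Lgals4 was the one member with a clearly lower mean in hMut, and it also missed the threshold. The gene lies on chromosome 7 from 28533279 to 28541133, plus strand (10 exons). Its level ran from 16.8 to 55.8 CPM in Ctrl (median 29.3) and from 10.6 to 35.1 CPM in hMut (median 18.6). The groups overlapped, with 3 of 9 hMut hearts below the lowest Ctrl heart and hMut replicate 8, at 35.1 CPM, above the Ctrl median. The log2 fold change was -0.76 ± 0.23 (adjusted p = 0.0687, edgeR). DESeq2 called the same difference (adjusted p = 0.0129), and so did edgeR without hMut replicate 8 (-0.92, adjusted p = 0.0191) or without Ctrl replicate 4 (-0.86, adjusted p = 0.0397). Lgals4 begins 1606 bases after the end of Ech1, a highly transcribed fatty acid oxidation gene on the same strand, and Lgals4 counts were 1.84% to 4.75% of Ech1 counts in Ctrl and 1.36% to 3.57% in hMut. Whether reads that run past Ech1 contribute to Lgals4 was not tested, and Ech1 was singled out for its position after its values were seen. Lgals6, a near-identical copy of Lgals4 in some mouse strains, was not analysed here.

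Lgals1, the prototype galectin, had the same mean in both groups. The gene lies on chromosome 15 from 78810925 to 78814665, plus strand (4 exons). Ctrl hearts lay between 126 and 156 CPM (median 135) and hMut hearts between 118 and 160 CPM (median 140), so that the hMut range enclosed the Ctrl range. The log2 fold change was -0.0059 ± 0.069, with a 95% interval from -0.15 to 0.14 (adjusted p = 0.967, edgeR), and its sign flipped to 0.19 with libraries scaled on cardiomyocyte genes, where the median of all genes moved by 0.20. In bulk tissue, fewer cells of a type and less RNA per cell cannot be told apart, and this holds for each level given here.

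**Figure D2:**
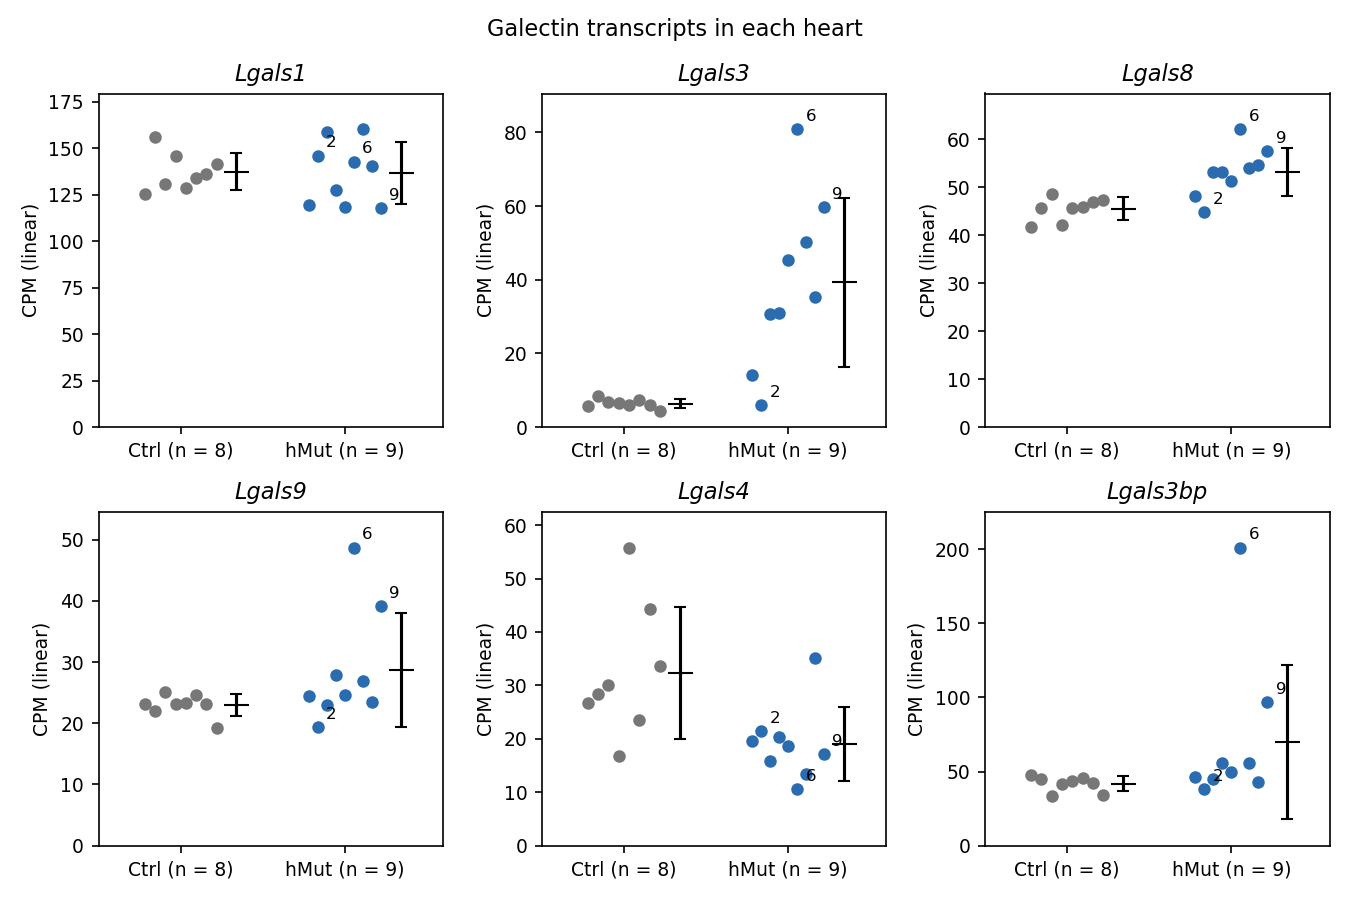
Each point is 1 heart, with CPM on a linear axis for each of the 6 members, 8 Ctrl hearts in grey and 9 hMut hearts in blue, and bars give the mean ± SD. Numbers mark hMut replicates 2, 6 and 9: Lgals3 is above the Ctrl range in all hMut hearts but replicate 2, whereas Lgals3bp and Lgals9 are high mainly in replicates 6 and 9.

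**Figure D3:**
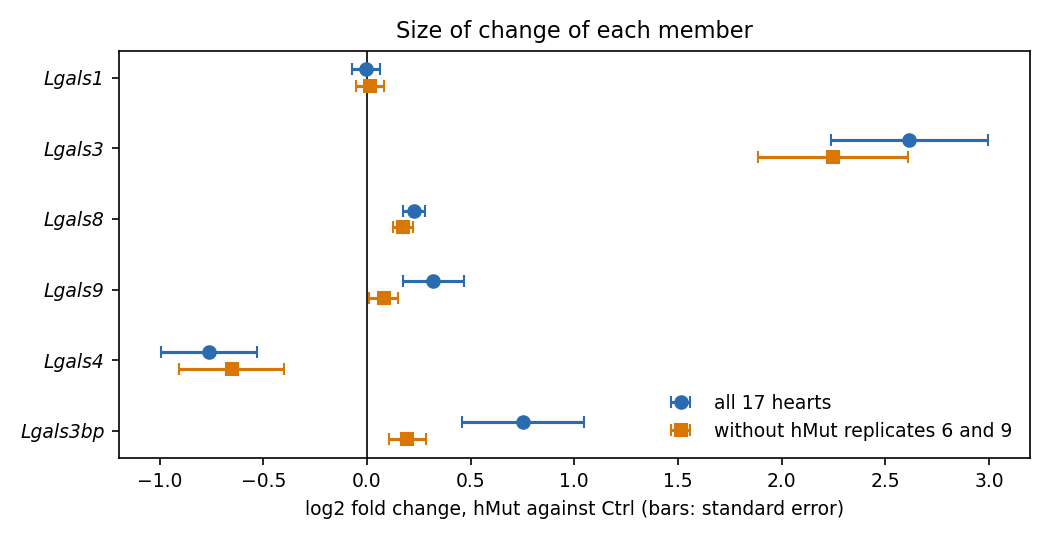
Points give the log2 fold change of hMut against Ctrl with its standard error, over all 17 hearts (circles) and without hMut replicates 6 and 9 (squares). Lgals3 stays above 2 in both fits (2.62 and 2.25), Lgals3bp moves from 0.75 to 0.19 and Lgals9 from 0.32 to 0.08.

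The members were then set against each other within each library, where a ratio of 2 genes does not depend on library size. The mean log2 ratio of each of the 15 pairs was compared between groups by exact permutation (two-sided) of the group labels, which has 24310 arrangements, and p was adjusted over the 15 pairs. Lgals3 rose against each of the other 5 members. The difference in log2 ratio ran from 1.78 against Lgals3bp (adjusted p = 0.00144, exact permutation) to 3.06 against Lgals4 (adjusted p = 0.00144), and 8 of 9 hMut hearts lay outside the Ctrl range for each of these 5 ratios. Lgals4 fell against the other 5, for example by 0.97 on the log2 scale against Lgals8 (adjusted p = 0.00452, exact permutation). Lgals8 also rose against Lgals1 (adjusted p = 0.0286, exact permutation), and Lgals3bp against Lgals9 (adjusted p = 0.0453). The remaining 4 pairs, which join Lgals1 or Lgals8 with Lgals9 or Lgals3bp, did not pass, with adjusted p from 0.0726 to 0.724 (exact permutation). In all 11 of 15 pairs passed, 7 without hMut replicates 6 and 9, and 3 when medians took the place of means. Those 3 were Lgals3 against Lgals3bp, Lgals4 and Lgals9. With medians, Lgals3 against Lgals1 and against Lgals8 did not pass (both adjusted p = 0.0506, exact permutation). Nor did Lgals4 pass against any member but Lgals3.

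Marker sums of some other cell types, but not all, moved with Lgals3bp and Lgals9 in hMut replicates 6 and 9. The summed level of 22 macrophage markers was 363 to 541 CPM in Ctrl, 1927 CPM in hMut replicate 6, 971 CPM in replicate 9 and 458 to 577 CPM in the other 7 hMut hearts. Of the 22, 0 passed the edgeR test, and DESeq2 and limma-voom each called 1 higher. At an unadjusted p under 0.05 in edgeR, 10 were higher and 0 lower (2 higher without replicates 6 and 9). Among all tested genes, 4128 of 16195 had such a p in either direction, and 2953 of 16159 without replicates 6 and 9. The macrophage markers were led by Cd14, a co-receptor for lipopolysaccharide (log2 fold change 0.56, adjusted p = 0.0688), Fcgr1, an Fc receptor (1.08, adjusted p = 0.114), and C1qa, a complement subunit (0.70, adjusted p = 0.130). The list had a median log2 fold change of 0.57 against 0.00 over all tested genes, and 0.10 without replicates 6 and 9. No gene of the list was at 0 in all libraries. The summed level of 14 T and NK cell markers was 137 CPM in replicate 6 and 13.6 CPM in replicate 9, against 4.11 to 18.8 CPM in Ctrl. The B and plasma cell sum was 53.2 and 18.8 CPM in these hearts, within the Ctrl range of 8.27 to 220 CPM. The 18 cardiomyocyte markers were lowest in replicates 6 and 9 (58042 and 56052 CPM, against 74572 to 89705 CPM in Ctrl). The part of these cell types in the levels of Lgals3bp and Lgals9 was not tested.

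Lgals3 was also high in hearts where the macrophage sum lay within the Ctrl range or little above it. In hMut replicates 3, 4 and 8, Lgals3 stood at 4.77, 4.85 and 5.50 times the Ctrl mean, while the macrophage sum stood at 1.04, 1.03 and 1.04 times. In replicates 5 and 7, Lgals3 stood at 7.09 and 7.82 times the Ctrl mean. The macrophage sum there stood at 1.18 and 1.21 times, just above its Ctrl range. In replicate 6 both were high, at 12.6 and 4.03 times, and in replicate 9 at 9.31 and 2.03 times. Replicates 1 and 2 were the lowest hMut hearts for both. Lgals3 stood there at 2.22 and 0.939 times and the macrophage sum at 0.982 and 0.958 times. The part of macrophages in the level of Lgals3 was not tested. Of 11 markers of lipid- and damage-associated macrophages, which also include genes of heart muscle such as Lpl, 3 rose, beside 3.38% of all tested genes. These were Ctsl and Ctsd, which encode lysosomal proteases, and Gpnmb, a lysosomal membrane glycoprotein of activated macrophages. Gpnmb rose from 3.596 ± 0.826 to 10.02 ± 5.37 CPM (log2 fold change 1.48 ± 0.31, adjusted p = 0.0127, edgeR; 1.13 without replicates 6 and 9, adjusted p = 0.0450). Its lowest hMut value was 2.42 CPM and 7 of 9 hMut hearts lay above each Ctrl heart. Without replicates 6 and 9, 2 of the 11 were called higher and 1 lower, which was Lpl, lipoprotein lipase, named after its values were seen (log2 fold change over all hearts -0.39, adjusted p = 0.0602, edgeR). DESeq2 and limma-voom on all hearts each called 4 higher and 1 lower. Among all genes, DESeq2 called 1010 higher and 507 lower of 16265, and limma-voom 1161 and 901 of 16195. The summed level of the 11 genes was 7427 to 9272 CPM in Ctrl and 5137 to 8192 CPM in hMut. It was lowest in replicates 9 and 6 (5137 and 5217 CPM).

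**Figure D4:**
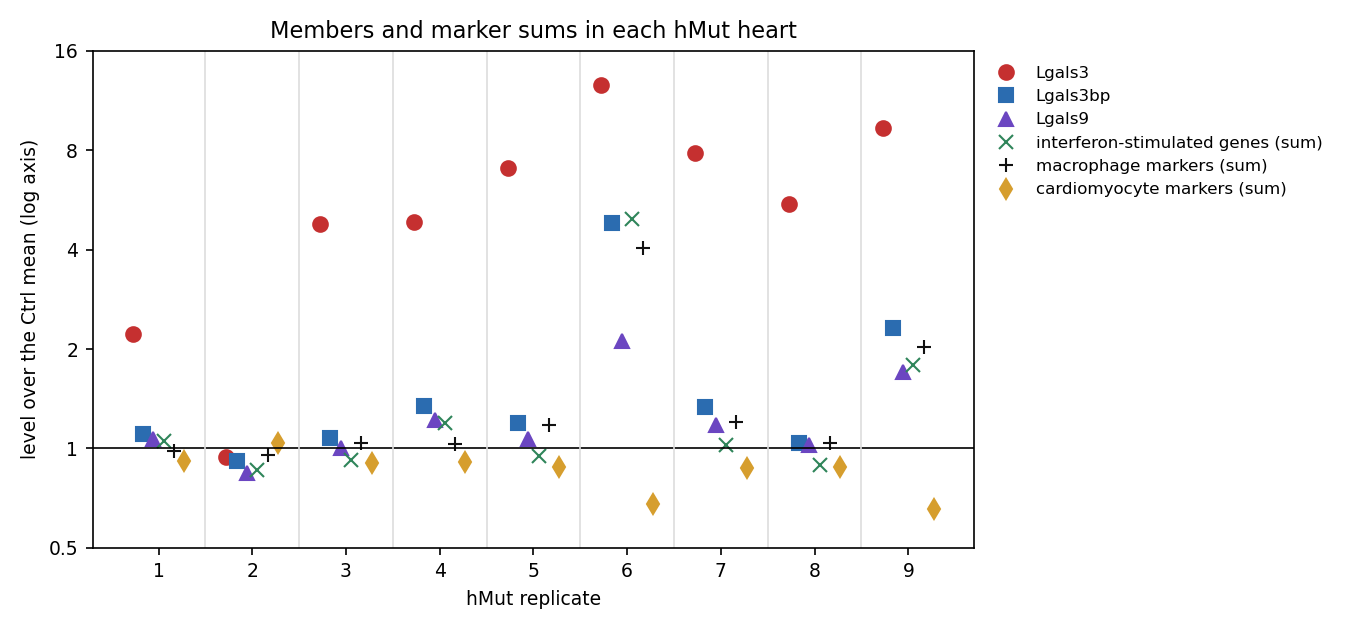
For each hMut replicate, symbols give the level over the Ctrl mean (log axis, 1 = Ctrl mean) of Lgals3, Lgals3bp, Lgals9 and the summed CPM of interferon-stimulated genes, macrophage markers and cardiomyocyte markers. Lgals3 is at 2.22 or more in all hearts but replicate 2 (0.939), whereas Lgals3bp and the interferon and macrophage sums are high mainly in replicates 6 and 9.

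Interferon-stimulated genes, the group to which Lgals9 and Lgals3bp are usually counted, followed the same hearts. The sum of 40 such genes, without the members, stood at 4.96 times the Ctrl mean in hMut replicate 6, at 1.79 times in replicate 9 and at 0.857 to 1.19 times in the others. Of the 40, 0 passed the edgeR test, DESeq2 called 1 higher and limma-voom 0. At an unadjusted p under 0.05 in edgeR, 13 were higher and 0 lower (1 higher without replicates 6 and 9). This stands beside 4128 of 16195 tested genes in either direction, and 2953 of 16159 without replicates 6 and 9. The median log2 fold change of the 40 was 0.60, and -0.05 without replicates 6 and 9. The 3 with the smallest adjusted p were Irf7, a transcription factor of the interferon response (1.72, adjusted p = 0.0920, edgeR), Oas3, a sensor of double-stranded RNA (1.82, adjusted p = 0.0988), and Bst2, the antiviral protein tetherin (0.67, adjusted p = 0.146).

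Among 39 tested binding partners and receptors of galectins, 3 rose and 0 fell, beside 3.38% and 1.09% of all tested genes. The median log2 fold change was 0.24, and 0.05 without hMut replicates 6 and 9. Slc3a2, the CD98 heavy chain and a galectin-3 ligand, rose from 31.0 ± 1.90 to 52.9 ± 12.4 CPM (log2 fold change 0.77 ± 0.12, adjusted p = 0.000968, edgeR). All 9 hMut hearts lay above the Ctrl range, and the change remained called without replicates 6 and 9 (0.64, adjusted p = 0.00106). Itga1, the collagen-binding integrin alpha-1, rose from 56.9 to 68.1 CPM (0.26, adjusted p = 0.0356), and Kdr, the VEGF receptor of endothelial cells, from 223 to 292 CPM (0.39, adjusted p = 0.0417). Neither was called without replicates 6 and 9 (adjusted p = 0.0847 and 0.0782, edgeR), although the log2 fold changes there, 0.23 and 0.40, were close to those over all hearts.

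Over all tested genes 3.38% rose and 1.09% fell. Among 27 enzymes that build, branch and cap the N-glycans and related sugars that galectins read, 1 rose and 0 fell, near those shares. This was Gcnt1, which starts the branch of core 2 O-glycans, at 5.93 ± 1.36 CPM in Ctrl and 10.2 ± 4.30 CPM in hMut (log2 fold change 0.79 ± 0.22, adjusted p = 0.0471, edgeR). It was lost without replicates 6 and 9 (0.48, adjusted p = 0.100). Over the list the median log2 fold change was 0.03.

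Of 35 tested genes of the response to damaged endosomes and lysosomes, 4 rose and 0 fell, beside 3.38% and 1.09% of all tested genes. The median log2 fold change was 0.03. Sqstm1, the autophagy receptor p62, rose from 459 ± 38.7 to 665 ± 125 CPM (log2 fold change 0.54 ± 0.10, adjusted p = 0.00533, edgeR), with 8 of 9 hMut hearts above the Ctrl range. Chmp3, a subunit of the membrane-repair complex ESCRT-III, rose from 66.8 to 76.3 CPM (0.19, adjusted p = 0.0296), and Ctsd from 545 to 618 CPM (0.18, adjusted p = 0.0483). Gpnmb was the other one. Without replicates 6 and 9, 2 of the 4 passed, Sqstm1 and Gpnmb. Chmp3 (log2 fold change 0.14, adjusted p = 0.0680, edgeR) and Ctsd (0.15, adjusted p = 0.0922) did not.

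The median log2 fold change of 27 tested fibrosis and matrix genes was 0.54. Of the 27, 3 rose and 0 fell, beside 3.38% and 1.09% of all tested genes. These were Ccn2, a matricellular growth factor (40.4 ± 12.8 CPM in Ctrl, 105 ± 63.2 in hMut; log2 fold change 1.38, adjusted p = 0.0280, edgeR), Tgfb2, a transforming growth factor (0.92, adjusted p = 0.0369), and Thbs1, thrombospondin-1 (1.23, adjusted p = 0.0492). Without hMut replicates 6 and 9, 0 of the 27 passed and the median was 0.25. In that fit 9 were higher at an unadjusted p under 0.05, beside 2953 of 16159 tested genes in either direction. The summed level was 1056 to 1248 CPM in Ctrl, and 8 of 9 hMut hearts lay above that range, as did Lgals3. The exception for both was hMut replicate 2, a heart near Ctrl in other genes too, so the shared exception is not particular to these genes. Its cardiomyocyte marker sum was 1.04 times the Ctrl mean. Leaving it out alone moved the called genes from 548 higher and 176 lower to 1116 and 652.

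Of the other galectin family genes, Lgalsl, the galectin-like protein, was the only one at a level near the members. It stood at 46.9 ± 3.08 CPM in Ctrl and 46.8 ± 3.28 CPM in hMut, with a log2 fold change of -0.0049 ± 0.050 (adjusted p = 0.960, edgeR), and its sign flipped when libraries were scaled on cardiomyocyte genes (0.19). Lgals2 was near the floor at 0.302 and 0.344 CPM (log2 fold change 0.18, adjusted p = 0.744). Lgals7, Lgals12 and Grifin had 15, 29 and 4 counts over all 17 libraries and were not tested.

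The genes whose level most resembled that of each member over the 17 hearts were sought among 13707 genes by Spearman's rho of log2 CPM. All points share library, depth and the group difference, so these values describe likeness only. For Lgals3 they were Cap1, an actin regulator (rho 0.956), Tspo, a mitochondrial outer membrane protein (0.944), and Cstb, the cathepsin inhibitor cystatin B (0.941). None of these 3 passed the test of hMut against Ctrl. For Lgals8 they were Rpl3, a ribosomal protein (0.9755), Ywhab, a 14-3-3 protein (0.953), and Chmp3 (0.949), and for Lgals3bp they were Col6a1, a collagen VI chain (0.929), Ttll12 (0.914) and Slc10a7 (0.914). For Lgals9 they were Pdlim2 (0.917), Retreg2 (0.902) and Nlgn2 (0.900), for Lgals4 Elac1 (0.922), Slc22a5, the carnitine transporter (0.919), and Mapk1ip1 (0.914), and for Lgals1, with lower values, Psmc3 (0.806), Gins4 (0.779) and Cops5 (0.775).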

How the data were processed

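RNA-seq counts of 17 heart libraries were analysed. The authors used fastp for read filtering and HISAT2 2.2.1 for alignment on GRCm39, and deposited raw counts per gene from featureCounts 2.0.6, with a gene length in bases. The strand setting and annotation release are not given in the sources used here. Groups came from the titles. Counts were fitted with edgeR 4.0.16 (R 4.3.3): filterByExpr, TMM, robust quasi-likelihood F test, Benjamini-Hochberg over 16195 genes, threshold 0.05. CPM used TMM library sizes. Log2 ratios of members used a prior count of 2 and exact permutation over 24310 splits (numpy 2.4.6). Ranks for Spearman's rho came from scipy 1.17.1. The fit was tested on simulated data. Alternatives were DESeq2 1.42.0, limma 3.58.1 (voom), other normalizations and filters, sex as a covariate, cardiomyocyte scaling, a replicate block, and leaving out hearts. Sex for the covariate was read from counts of Xist against Y-linked genes, by which 3 Ctrl and 2 hMut libraries were female.

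Members and gene lists were chosen with earlier results of these data known. Named genes were the members, other galectins with counts, up to 6 called genes per list by smallest adjusted p (the 3 smallest where none passed), and the 3 genes most like each member. Depth sets the precision: members had 15928 to 87895 counts over all libraries.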

Additional observations from a re-analysis of the deposited data

Results flagged for a closer look

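Of 12 sets of hearts checked, 2 held a heart far from the others by Dixon's criterion, which chance gives in about 5% of sets. Lgals3bp in hMut replicate 6 stood at 201 CPM, with 96.6 CPM as the next highest hMut heart. Lgals4 in hMut replicate 8 stood at 35.1 CPM, with 21.5 CPM as the next highest.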

How the results depend on the processing

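Over 11 other ways of fitting the counts the log2 fold change of Lgals3 ran from 2.25 to 2.91, and over 17 fits that each left out 1 heart from 2.41 to 2.76, called in each fit except the one with the replicate number as a block (2.28, adjusted p = 0.0501, edgeR). In that block fit Lgals8 was also lost (0.21, adjusted p = 0.0805), so 0 members were called, and 167 genes were higher and 31 lower. The replicate numbers pair no animals in the labels. Correlations of same-numbered deviations ran from -0.23 to 0.34, which cannot tell whether same-numbered hearts shared a batch or litter. Without hMut replicates 6 and 9, 1 member (Lgals3) was higher, Lgals8 was at 0.17, and 325 genes were higher and 115 lower. Scaled on cardiomyocyte genes, which moved the median of all genes by 0.20, Lgals3bp was called (1.06, adjusted p = 0.0451), and 3794 genes were higher and 98 lower, a share of 97.5% higher against 75.7%. DESeq2 called Lgals4 lower (-0.76, adjusted p = 0.0129), making 1 member lower, with 1010 genes higher and 507 lower. limma-voom did too (-0.77, adjusted p = 0.0338, 1 member lower), with 1161 higher and 901 lower (56.3% higher). With no filter on low counts 73 genes were lower. Lgals1 changed sign with cardiomyocyte scaling (0.19), the block (0.014), voom (0.0035) and without hMut replicates 6 and 9 (0.014), and Lgalsl likewise (0.19, 0.0062, 0.00042 and 0.0052). Lgals8 minus Lgals9 changed sign without replicates 6 and 9 (0.10) and with medians (0.036), and pairs past the threshold numbered 7 and 3 there. Leaving out 1 heart gave 322 to 1116 genes higher and 65 to 652 lower, 1 to 2 members higher and 0 to 1 lower, with Lgals8 at 0.20 to 0.25, Lgals4 at -0.92 to -0.61, Lgals3bp at 0.37 to 0.83, Lgals9 at 0.19 to 0.38, Lgals1 at -0.037 to 0.021 and Lgalsl at -0.034 to 0.016. Among the gene lists, the number higher was, for binding partners (3), 6 with DESeq2, 7 with voom, 15 with cardiomyocyte scaling and 1 with the block or without replicates 6 and 9. For N-glycan enzymes (1) it was 10 with cardiomyocyte scaling and 0 with upper-quartile scaling, no filter, sex as a covariate, the block or without replicates 6 and 9. For endolysosomal genes (4) it was 16 with cardiomyocyte scaling, 2 with no filter or without replicates 6 and 9, and 0 with the block, and voom called 1 lower. For fibrosis genes (3) it was 18 with cardiomyocyte scaling, 8 with DESeq2, 5 with voom or a stricter filter, 1 with sex as a covariate and 0 with no filter, the block or without replicates 6 and 9. For interferon-stimulated genes (0) it was 1 with DESeq2 and 3 with cardiomyocyte scaling. Leaving out 1 heart gave 1 to 7, 0 to 1, 2 to 6, 0 to 10 and 0 to 1 higher in these lists, and 0 to 1 endolysosomal genes lower. Depth did not limit the members, each of which had at least 186 counts in each library. The causes were not tested.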

Other observations

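Markers of the other heart cell types were summed and tested in the same edgeR fit, in which 3.38% of all tested genes rose and 1.09% fell. Of 11 endothelial genes 2 rose, Kdr and Cldn5, a tight-junction protein (log2 fold change 0.61, adjusted p = 0.0438), and of 10 mural genes 1 rose, Pdgfrb, the pericyte receptor (0.24, adjusted p = 0.0443). These 3 were not called without hMut replicates 6 and 9, where the log2 fold changes were 0.40 for Kdr (0.39 over all hearts), 0.55 for Cldn5 and 0.19 for Pdgfrb. Of 5 tested atrial genes Bmp10, an atrial growth factor, rose from 0.216 ± 0.0845 to 10.6 ± 7.85 CPM (log2 fold change 5.58, adjusted p = 0.000112), with all 9 hMut hearts above the Ctrl range, and of 4 tested epithelial and mesothelial genes Wt1, an epicardial transcription factor, rose (0.54, adjusted p = 0.0224). Both were called without replicates 6 and 9 as well.

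For the counts that follow, 4128 of all 16195 tested genes had an unadjusted p under 0.05 in edgeR, in either direction. Without hMut replicates 6 and 9 these were 2953 of 16159. DESeq2 called 1010 genes higher and 507 lower of 16265, and limma-voom 1161 and 901 of 16195. Of 12 fibroblast markers 0 were called by edgeR, 8 were higher at an unadjusted p under 0.05, and DESeq2 called 3. Without hMut replicates 6 and 9, 2 were higher at an unadjusted p under 0.05 and the list median moved from 0.27 to 0.13. The smallest adjusted p values were those of Fbln1 (log2 fold change 0.29, adjusted p = 0.0711), Tcf21 (0.25, adjusted p = 0.0813) and Mfap5 (0.62, adjusted p = 0.103; 0.31 without replicates 6 and 9). Of 18 cardiomyocyte markers 0 were called by edgeR, while 10 were lower at an unadjusted p under 0.05 and DESeq2 called 5 and limma-voom 7 lower. These were led by Myh6 (-0.34, adjusted p = 0.0514), Tnni3 (-0.43, adjusted p = 0.0623) and Pln (-0.35, adjusted p = 0.0691). Without replicates 6 and 9, edgeR called 1 of the 18 lower, Myh6 (-0.25, adjusted p = 0.0457).

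Blood cell markers were at low levels and not called by edgeR, DESeq2 or limma-voom. An unadjusted p under 0.05, in either direction, was found for 4128 of all 16195 tested genes in edgeR. The numbers were 4717 of 16265 in DESeq2, 4756 of 16195 in limma-voom, and 2953 of 16159 in edgeR without hMut replicates 6 and 9. The T and NK cell genes with the smallest adjusted p were Cd3e (2.08, adjusted p = 0.134), Nkg7 (2.15, adjusted p = 0.153) and Cd3g (1.64, adjusted p = 0.162), with 5 of 11 tested higher at an unadjusted p under 0.05 in edgeR, 1 in DESeq2 and 0 in limma-voom. Without hMut replicates 6 and 9 the count in edgeR was 0, and the log2 fold changes were 0.17 for Cd3e, -0.07 for Nkg7 and 0.06 for Cd3g. Those of monocytes, neutrophils and dendritic cells were Ly6c2 (1.15, adjusted p = 0.223), Flt3 (1.03, adjusted p = 0.228) and Xcr1 (1.37, adjusted p = 0.231), with 0 of 12 tested at an unadjusted p under 0.05. Without replicates 6 and 9 they were 0.23 for Ly6c2, -0.17 for Flt3 and -0.42 for Xcr1, and the list median turned from 0.39 to -0.17. Those of B and plasma cells were Cr2 (-1.99, adjusted p = 0.124), Jchain (-1.95, adjusted p = 0.217) and Ighd (-1.16, adjusted p = 0.218), with 1 of 10 lower at an unadjusted p under 0.05. Their summed level was highest in 1 Ctrl heart, at 220 CPM against a Ctrl median of 22.3 CPM. Of 6 adipocyte genes 0 had enough counts to be tested.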
